A study of Mus musculus with 6 samples.

Results

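Mitochondrial ribosomal proteins are nuclear-encoded subunits of the ribosome inside mitochondria, and their genes were described here in macrophages raised from mouse marrow under 1 of 2 growth factors, CSF1 or CSF2. Members were all genes on the array whose platform symbol starts with Mrpl or Mrps followed by a number, a rule that uses no measured value. This gave 77 genes of 19938 tested, 48 named for the large subunit and 29 for the small subunit. Mrpl53, present only on a probe set shared with a neighbouring gene, was not analysed here.

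The mitochondrial ribosome makes the core respiratory chain proteins encoded by mitochondrial DNA. It descends from a bacterial ribosome, and some of its proteins have bacterial homologs while others are found only in mitochondria. All of its proteins are made in the cytosol and imported, whereas its RNAs are transcribed in the mitochondrion, so its assembly joins products of both genomes. Symbols do not always give the subunit: Mrps30 and Mrps18a are large subunit proteins in the known structure, and Mrps36 is now known as a component of the 2-oxoglutarate dehydrogenase complex.

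Marrow from C57BL/6 mice was cultured for 7 days with CSF1 (macrophage colony-stimulating factor), which gave M(CSF1) cells, or with CSF2 (granulocyte-macrophage colony-stimulating factor), which gave M(CSF2) cells. Each group had 3 arrays of Affymetrix Mouse Gene 1.0 ST, whose probes are spread along the transcript, and no genetic change or further agent is named for either group. Sorted cells were put into Trizol within 4 h, and the labels call the samples biological replicates without saying whether each came from its own mouse. The p-values therefore reflect only how far these samples differ from each other, and some of that spread may be technical.

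Correlations across all probe sets were 0.995 to 0.997 within a group and 0.954 to 0.959 between groups. All 7 macrophage markers measured, of 8 listed, lay above the level of olfactory receptor genes, with a summed signal of 13.29 to 13.35 on the log2 scale in M(CSF1) and 13.45 to 13.56 in M(CSF2). They did not move together: 3 were called higher in M(CSF2) and 2 lower, with differences from -1.23 (Fcgr1) to 1.71 (Cd14) and a median of -0.19. Among markers of other cells, the neutrophil genes Ly6g, Ngp and Retnlg, the mast cell genes Cpa3, Mcpt4, Mcpt8, Fcer1a and Ms4a2, the dendritic cell genes Xcr1 and Clec9a, the stromal genes Lum and Cxcl12 and the lymphoid genes Cd3d, Ncr1 and Klrb1c lay at the level of olfactory receptor genes on all 6 arrays. That level was set at 3.36 on the log2 scale, a value that 95% of the 1027 olfactory receptor genes do not exceed. The summed signal of 8 dendritic cell markers was 7.41 to 7.57 in M(CSF1) and 11.11 to 11.41 in M(CSF2), and that of 8 mast cell and basophil markers 6.31 to 6.64 and 8.96 to 9.19. Neutrophil markers gave 7.19 to 7.35 and 8.33 to 9.05, stromal markers 7.60 to 7.99 and 7.86 to 8.22, and lymphoid markers 5.98 to 6.17 and 6.03 to 6.14. By single genes, 3 of 8 dendritic cell markers and 4 of 8 mast cell and basophil markers were called higher in M(CSF2) and 0 lower. For neutrophil markers 1 of 8 was higher and 0 lower. The largest rises in these 3 lists were 5.05, 4.43 and 2.37. Of 8 stromal markers 1 was higher and 1 lower, with differences from -2.91 to 3.30, and of 7 lymphoid markers 0 were called. The part of such other cells in the results was not tested.

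The question was how the 2 inducers compare in the RNA of the mitochondrial ribosome's proteins. Of the 77, 14 were lower in M(CSF2), 4 were higher and 59 (76.6%) did not pass the test, beside 72.5% of all genes that did not pass. The few large differences ran in both directions within the large subunit. Mrpl3 was 2.71-fold lower in M(CSF2) and Mrpl27 was 2.39-fold higher by its brightest probe set. No other member was called at 2-fold or more. In the small subunit Mrps28 differed most, at 1.77-fold lower.

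Differences are the M(CSF2) mean minus the M(CSF1) mean of the deposited log2 values. Calls were made where limma's moderated test, with Benjamini-Hochberg adjustment over all genes, gave an adjusted p under 0.05, and limma is the source of each adjusted p below. The large subunit had 9 of 48 members lower and 4 higher, and the small subunit 5 of 29 lower and 0 higher. Called members made up 23.4% of the 77, beside 27.5% of all genes called in either direction. Lower calls made up 18.2% of the members and 15.6% of all genes, and higher calls 5.19% and 11.9%. Among genes above the median signal, where 75 of the 77 members lay, 48.6% were called, 28.2% lower and 20.4% higher.

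The median difference was -0.14 over the large subunit and -0.12 over the small subunit, beside 0.04 over all genes and -0.02 over genes above the median signal. Single arrays moved these medians by 1.5 times or more: the large subunit gave -0.06 without M(CSF1) replicate 1, and the small subunit -0.07 without M(CSF2) replicate 1 and -0.18 without M(CSF2) replicate 2. The middle 50% of members ran from -0.31 to 0.08. Values were below 0 for 48 of the 77 members, or 62.3%, against 41.5% of all genes and 52.1% of genes above the median signal. The groups did not overlap for 38 members (28 lower and 10 higher), or 49.4%, against 38.9% of all genes and 61.2% of genes above the median signal. By array, the median of the large subunit members was 6.80, 6.78 and 6.66 in M(CSF1) and 6.45, 6.62 and 6.54 in M(CSF2). For the small subunit it was 6.41, 6.33 and 6.42 in M(CSF1) and 6.20, 6.29 and 6.16 in M(CSF2). In both subunits each M(CSF2) array lay below each M(CSF1) array, by less than the range of differences among members.

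The lean to lower values depended on how arrays were scaled. After quantile normalization 9 members were lower and 10 higher (large subunit 5 and 8, small subunit 4 and 2), and the medians were -0.06 and -0.02. The lower calls of Mrpl23, Mrpl35, Mrpl49, Mrpl54 and Mrps17 ended there, and Mrpl24, Mrpl41, Mrpl43, Mrpl44, Mrps21 and Mrps23 were called higher. After centring on array medians 18 were lower and 3 higher. Lower calls made up 77.8%, 47.4% and 85.7% of the called members as deposited, after quantile normalization and after centring, and 56.8%, 52.6% and 61.4% of all called genes. No called member changed direction in any of 15 other fits. With 1 array left out, the remaining array pair of that group being taken to vary like the other group, the lower count moved by over 1.5 times in 4 cases. It was 7 without M(CSF1) replicate 1, 9 without M(CSF1) replicate 2, 7 without M(CSF2) replicate 1 and 8 without M(CSF2) replicate 3. In the small subunit 3 were lower in 5 of these fits and 7 without M(CSF1) replicate 3; in the large subunit 4 were lower without replicate 1 of either group and 5 without M(CSF2) replicate 3.

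**Figure D1:**
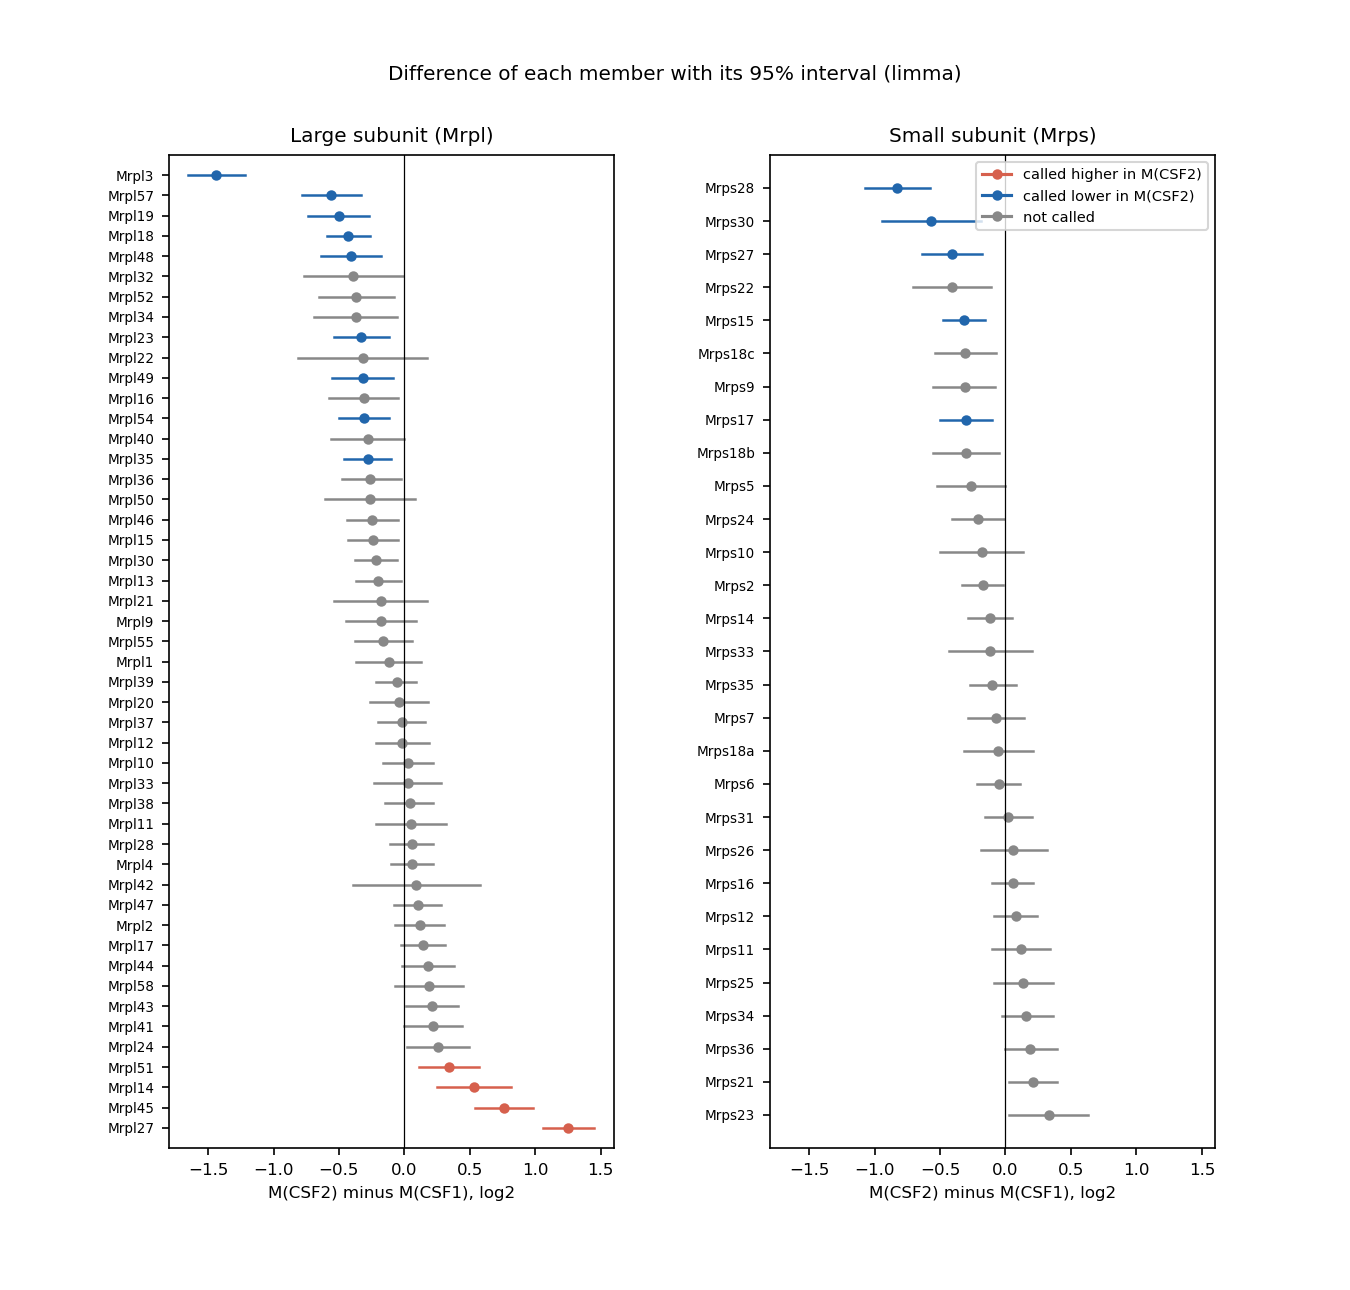
Difference of each of the 77 members, as log2 M(CSF2) mean minus M(CSF1) mean, with its 95% interval from limma, large subunit left (48 genes) and small subunit right (29 genes). Blue marks the 14 members called lower in M(CSF2), red the 4 called higher and grey the 59 not called; most intervals reach or approach 0, and Mrpl3 and Mrpl27 stand at the 2 ends.

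Among large subunit proteins with bacterial homologs, Mrpl3 had the largest fall of all members. Its protein sits in the core of the subunit close to the site where peptide bonds form. Signals on the log2 scale were 7.75, 7.59 and 7.49 in M(CSF1) and 6.12, 6.28 and 6.10 in M(CSF2). All 3 M(CSF1) arrays were more than a unit above all M(CSF2) arrays. The difference was -1.44 (SE 0.09, adjusted p = 1.9e-05), which is 2.71-fold with a 95% interval of 2.34 to 3.14, and it was called in all 15 other fits. Lower calls at 2-fold or more made up 4.42% of all genes, and Mrpl3 was the single member among them.

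The flanks of Mrpl3 and Mrpl27 are shown because these genes had the largest called fall and rise in the large subunit. Mrps28, with the largest fall in the small subunit, had no flank sequence to show. The flanks of Mrpl3 and Mrpl27 hold the same short motif. The sequence of Mrpl3 is RefSeq's, assembly GRCm38.p6, chr9:105053018-105053267, plus strand, the 250 bases before the gene's start. Capitals mark CCGGAAG, the core bound by ETS factors such as GABPA, from 19 to 13 bases before the start.
Mrpl3: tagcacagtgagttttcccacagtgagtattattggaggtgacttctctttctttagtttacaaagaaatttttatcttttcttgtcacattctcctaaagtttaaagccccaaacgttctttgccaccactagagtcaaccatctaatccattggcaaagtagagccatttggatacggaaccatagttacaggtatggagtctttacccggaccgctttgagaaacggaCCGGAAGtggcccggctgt

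Mrpl27 had the largest rise. Its bacterial homolog, L27, also lies near the site of peptide bond formation. Signals were 6.97, 7.16 and 6.98 in M(CSF1) and 8.22, 8.30 and 8.36 in M(CSF2), so the groups were more than a unit apart. The difference was 1.25 (SE 0.08, adjusted p = 2.2e-05), or 2.39-fold (95% interval 2.09 to 2.73), and it too was called in all 15 other fits. A second, dimmer probe set of Mrpl27 gave 6.05, 5.94 and 5.94 against 7.03, 7.02 and 6.88, a rise of 1.00 (adjusted p = 5.3e-05 over all probe sets). Whether either probe set detects a near-identical copy of Mrpl27 was not tested.

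The 250 bases before the start of Mrpl27, on the plus strand at chr11:94653541-94653790 of GRCm38.p6 in RefSeq, hold the same motif from 55 to 49 bases before the start, again in capitals.
Mrpl27: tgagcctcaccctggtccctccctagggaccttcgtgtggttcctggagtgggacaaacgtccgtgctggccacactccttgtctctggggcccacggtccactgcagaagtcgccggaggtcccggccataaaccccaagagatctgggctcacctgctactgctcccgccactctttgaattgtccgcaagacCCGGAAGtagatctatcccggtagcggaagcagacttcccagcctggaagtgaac

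Of the 77 members, 68 had an entry in the promoter table, which gives 250 bases before and 50 after each start. Searched on both strands, CCGGAAG was found for 25 of the 68 members (36.8%) and for 9.93% of all 27025 genes in that table. It was present for 5 of 11 members called lower, 2 of 4 called higher and 18 of 53 not called. GCATGCGC, a core bound by NRF1, was found for 8 members (11.8%, against 3.05% of all genes), none of them among those called. AAGATGGCG, a YY1 motif that can share its first 3 letters with the end of CCGGAAG, was found for 8 (11.8%, against 1.64%), 2 of them called lower. CACGTG, the E-box bound by MYC among others, was found for 5 (7.35%, against 8.09%). The windows of members had a median of 58.0% G and C, against 52.8% for all genes in the table, and the effect of that on the shares was not tested. Matches describe the letters of these windows only.

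4 more proteins with bacterial homologs fell by smaller amounts, and 1 more rose. Mrpl19, a homolog of bacterial L19, read 6.99, 6.94 and 6.73 in M(CSF1) and 6.23, 6.45 and 6.46 in M(CSF2), a difference of -0.50 (SE 0.10, adjusted p = 0.00718). Mrpl18, part of the central protuberance, read 7.73, 7.78 and 7.74 against 7.37, 7.23 and 7.37, or -0.43 (SE 0.07, adjusted p = 0.00265). The SDs of Mrpl18 were 0.02 in M(CSF1) and 0.08 in M(CSF2). Mrpl14, which in the structure holds the binding site of the assembly factor Malsu1, rose instead, from 5.97, 5.90 and 5.72 to 6.20, 6.39 and 6.61, by 0.53 (SE 0.12, adjusted p = 0.0119). Leaving out any 1 array kept the calls of these 3 genes. The highest adjusted p in those fits was 0.0422 for Mrpl19, 0.0167 for Mrpl18 and 0.0489 for Mrpl14. With ordinary least squares Mrpl19 and Mrpl14 were not called.

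Mrpl23, at the exit tunnel, gave -0.33 (SE 0.09, adjusted p = 0.0306) by its brightest probe set and -0.32 (adjusted p = 0.0437 over all probe sets) by the second. Mrpl35, the homolog of bacterial L35, gave -0.28 (SE 0.08, adjusted p = 0.0307). Both calls rested on which arrays were used. For Mrpl23 the adjusted p ran from 0.023 to 0.114 over the 6 fits with an array left out, passing only without M(CSF1) replicate 3 or M(CSF2) replicate 2, and it was highest without M(CSF1) replicate 2 at a difference of -0.30. For Mrpl35 it ran from 0.0147 to 0.107, passing only without M(CSF2) replicate 2, and was highest without M(CSF1) replicate 2 at -0.26. Neither was called after quantile normalization.

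Large subunit proteins found only in mitochondria gave 2 rises and 4 falls under Mrpl symbols, plus the fall of Mrps30. Mrpl45, which lies at the exit tunnel and helps to hold the ribosome at the inner membrane, rose most. It read 7.79, 7.72 and 7.55 in M(CSF1) and 8.33, 8.51 and 8.51 in M(CSF2). The difference was 0.76 (SE 0.09, adjusted p = 0.000563), or 1.70-fold with a 95% interval of 1.46 to 1.97, with the groups well apart in all arrays. Mrpl57 fell from 5.87, 5.76 and 5.63 to 5.27, 5.27 and 5.04, a difference of -0.56 (SE 0.10, adjusted p = 0.00347). Both genes were called in all 15 other fits.

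Mrpl48, in the central protuberance, read 6.5, 6.70 and 6.34 against 6.12, 6.08 and 6.12, a difference of -0.41 (SE 0.10, adjusted p = 0.0168). When each array was left out in turn the call passed in 2 of 6 fits, those without M(CSF1) replicate 2 or 3, with adjusted p from 0.00793 to 0.0616 (-0.40 without M(CSF2) replicate 2). Mrpl54 gave -0.31 (SE 0.08, adjusted p = 0.0273) and passed only without M(CSF1) replicate 2 or M(CSF2) replicate 3, with adjusted p from 0.0395 to 0.0901 (-0.29 without M(CSF1) replicate 1). Mrpl49 stood at the threshold, with -0.32 and adjusted p = 0.04999, and passed in 0 of the 6 fits (adjusted p from 0.06 to 0.161, -0.26 without M(CSF2) replicate 1). The members just beyond the threshold were Mrpl30, at -0.22 and adjusted p = 0.0512, and Mrps22, at -0.41 and adjusted p = 0.0514.

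Mrpl51 rose by 0.34 (SE 0.10, adjusted p = 0.0374), from 7.13, 7.05 and 6.88 to 7.26, 7.51 and 7.30. Its second probe set read 5.51, 5.43 and 4.99 against 5.50, 4.89 and 5.47, a difference of -0.02 (adjusted p = 0.948 over all probe sets), so the rise was seen by 1 of its 2 probe sets. Whether either of them detects a near-identical copy of Mrpl51 was not tested. The call of Mrpl51 passed only without M(CSF1) replicate 1 among the fits with an array left out (adjusted p from 0.0495 to 0.107, 0.27 without M(CSF2) replicate 2), and it ended after centring on array medians.

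**Figure D2:**
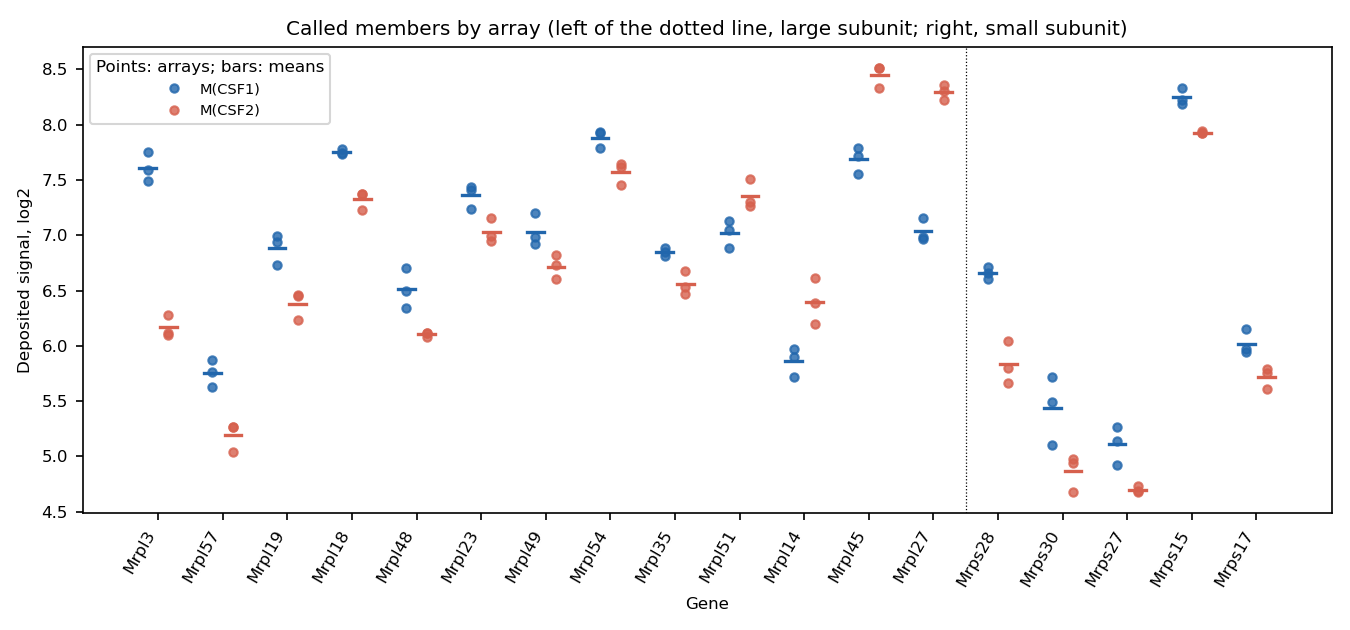
Deposited signal on the log2 scale (y axis) of the 18 called members (x axis) on each array, blue for the 3 M(CSF1) arrays and red for the 3 M(CSF2) arrays, with bars at the group means. The large subunit is left of the dotted line and the small subunit right of it. The gaps of Mrpl3, Mrpl27, Mrpl45 and Mrps28 are the widest.

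In the small subunit, Mrps28, a relative of bacterial S1 in the current naming, fell most. Its signals were 6.66, 6.71 and 6.60 in M(CSF1) and 5.66, 6.04 and 5.80 in M(CSF2). The M(CSF2) arrays spread more than the M(CSF1) arrays (SD 0.19 and 0.06) and still lay below all of them. The difference was -0.83 (SE 0.10, adjusted p = 0.000656), or 1.77-fold lower (95% interval 1.5 to 2.10), and was called in all 15 other fits. Mrps15, whose bacterial homolog S15 binds ribosomal RNA early in assembly, read 8.22, 8.33 and 8.19 against 7.92, 7.92 and 7.94. That is a small difference with little spread, -0.32 (SE 0.07, adjusted p = 0.00998), also called in all 15 other fits.

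Mrps27, a protein with pentatricopeptide repeats, read 5.27, 4.92 and 5.14 in M(CSF1) and 4.73, 4.69 and 4.68 in M(CSF2), or -0.41 (SE 0.10, adjusted p = 0.0164). With an array left out it passed only without M(CSF1) replicate 1 or 2 (adjusted p from 0.00743 to 0.0578, -0.40 without M(CSF2) replicate 2). Mrps17, a homolog of the bacterial S17, gave -0.30 (SE 0.09, adjusted p = 0.0366) and passed only without M(CSF1) replicate 3 (adjusted p from 0.0422 to 0.11, -0.25 without M(CSF2) replicate 3). Mrps30, a large subunit protein by structure, read 5.72, 5.49 and 5.10 against 4.68, 4.98 and 4.94. Its M(CSF1) arrays were widely spread (SD 0.31), and the difference of -0.57 (SE 0.16, adjusted p = 0.0347) passed only without M(CSF1) replicate 3 (adjusted p from 0.00834 to 0.143, -0.47 without M(CSF2) replicate 1).

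Counting Mrps30 and Mrps18a with the large subunit gave 10 of 50 lower and 4 higher there, and 4 of 27 lower and 0 higher in the small subunit. By descent, proteins with bacterial homologs had 5 of 30 lower and 2 higher in the large subunit and 2 of 15 lower and 0 higher in the small one, with a median difference of -0.17 in each. Proteins listed as mitochondria-specific had 5 of 20 lower and 2 higher in the large subunit (median -0.06) and 2 of 12 lower and 0 higher in the small subunit (median -0.04). Those counts follow the lists, in which Mrps28 stands with the mitochondria-specific proteins, as do Mrps18a and Mrps18b, relatives of bacterial S18. With Mrps28 moved, the small subunit had 3 of 16 lower (median -0.18) among proteins with bacterial homologs and 1 of 11 lower (median 0.02) among the others. Differences between these classes were not tested. For the 18 and 12 mitochondria-specific proteins in the fixed lists, which leave out Mrpl57 and Mrpl58, the medians became 0.02 and 0.04 after quantile normalization.

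The 59 members that did not pass ranged from -0.41 to 0.33. Their 95% intervals lay within a 1.5-fold change either way for 52 of them and within a 2-fold change for all 59. In the large subunit these were 35 genes from -0.39 (Mrpl32) to 0.26 (Mrpl24), 12 of them within 0.1 of 0. In the small subunit they were 24 genes from -0.41 (Mrps22) to 0.33 (Mrps23), 8 of them within 0.1 of 0. The groups were apart for 20 of the 59 (33.9%), against 15.8% of all genes not called and 24.7% of those above the median signal. One of the 20 was Mrpl30, which read 7.70, 7.64 and 7.58 against 7.38, 7.46 and 7.44.

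Among members that differed little were proteins of the stalk that recruits translation factors. Mrpl12, the stalk protein itself, read 7.65, 7.89 and 7.78 in M(CSF1) and 7.70, 7.85 and 7.72 in M(CSF2), with an interval of -0.22 to 0.19 around -0.02. Mrpl10, which carries it, gave 0.03 (interval -0.16 to 0.22) and Mrpl11, at the stalk base, 0.05. Mrps12, at the centre that reads the codon, read 4.94, 4.94 and 4.82 against 4.99, 5.0 and 4.94, or 0.08 (interval -0.09 to 0.24). Mrps36 gave 0.19 (adjusted p = 0.14). The p-values do not show that these genes are equal in the 2 groups, and the intervals give the size of change the arrays leave possible.

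Member signals averaged from 3.70 to 8.49 on the log2 scale over the 6 arrays. Probe sets differ in their response, so these averages place each gene against background and do not rank transcripts. The highest were Mrpl20 (8.49) and Mrpl45 (8.07) in the large subunit and Mrps15 (8.09) and Mrps21 (7.83) in the small subunit. The lowest were Mrpl22 (3.70) and Mrpl47 (4.00) in the large subunit and Mrps27 (4.91) and Mrps12 (4.94) in the small subunit. Mrpl22 read 3.98, 3.95 and 3.63 against 3.09, 3.58 and 3.95, with 1 M(CSF2) array below the olfactory receptor level and groups that overlapped (-0.32, adjusted p = 0.333).

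8 members had 2 probe sets each, and they disagreed for 2 of them, Mrpl51 and Mrpl47. For Mrpl47 the brighter probe set, which the platform pairs with a single cDNA and no RefSeq transcript, read 3.82, 4.01 and 4.01 in M(CSF1) and 4.09, 4.01 and 4.04 in M(CSF2), a difference of 0.10 (adjusted p = 0.408). Its other probe set, which is paired with a RefSeq transcript, read 3.87, 4.04 and 3.93 against 3.37, 3.51 and 3.44. That is a difference of -0.51, down to just above the olfactory receptor level (SE 0.08, adjusted p = 0.00178 over all probe sets). Mrpl47 was therefore counted as not called, while its RefSeq-paired probe set was lower; with the probe sets averaged it gave -0.20, also not called. The pairs of Mrpl41 (0.22 and 0.22), Mrps5 (-0.26 and -0.22), Mrps33 (-0.12 and -0.04) and Mrps36 (0.19 and 0.24) had the same sign and were not called. A probe set may also detect a near-identical copy of its gene, which was not tested.

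**Figure D3:**
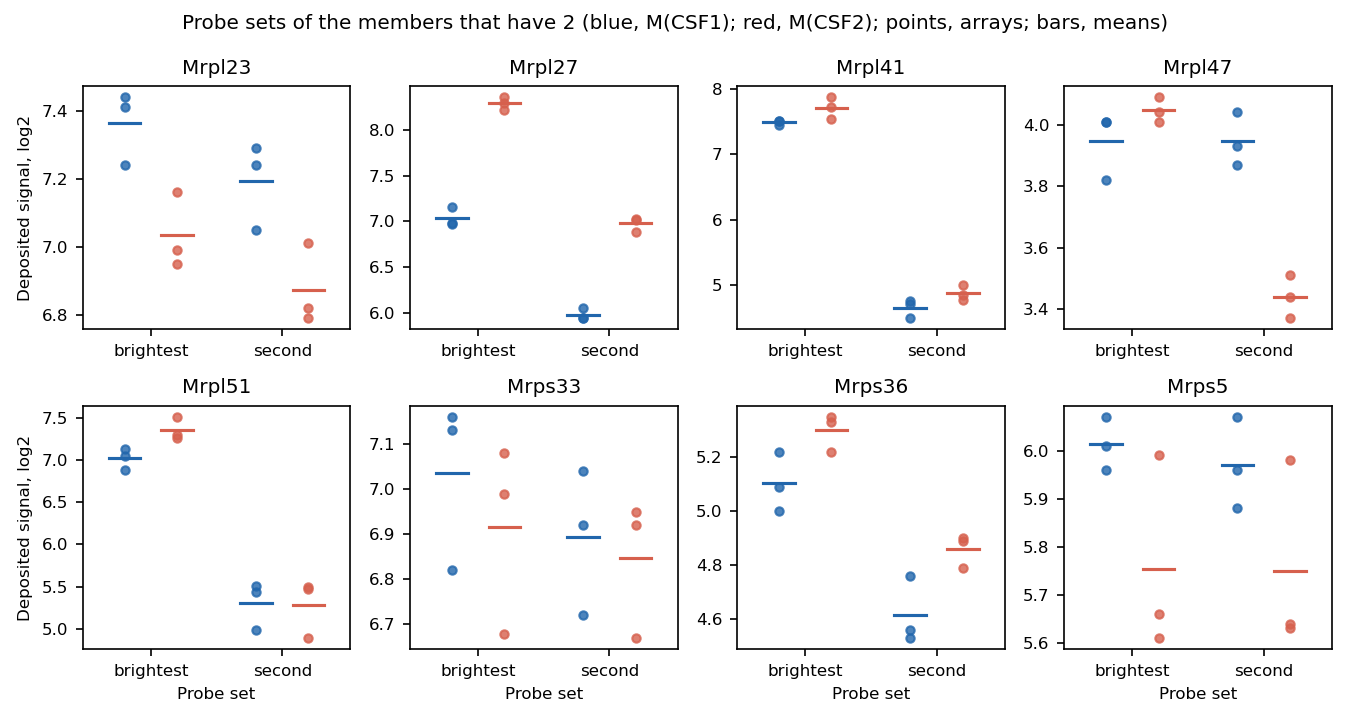
Deposited signal on the log2 scale (y axis, scaled for each gene) of the 8 members with 2 probe sets (x axis), points for arrays and bars for group means, blue for M(CSF1) and red for M(CSF2). Both probe sets of Mrpl27 are higher in M(CSF2), while for Mrpl47 the brightest gives 0.10 and the second -0.51.

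The list of mitochondrial ribosomal proteins known by other names had 6 measured genes, among them the members Mrpl57 and Mrpl58. Of these 6, 2 were lower (33.3%) and 0 higher, beside 15.6% and 11.9% of all genes. The 2 were Mrpl57, described above, and Ptcd3. Ptcd3, a small subunit protein with pentatricopeptide repeats, fell from 4.64, 4.51 and 4.38 to 3.96, 3.77 and 4.21, a difference of -0.53 (adjusted p = 0.0145; leaving out an array kept the call in 3 of 6 fits, with adjusted p from 0.00816 to 0.0705). Dap3, the GTP-binding protein of the small subunit, gave -0.14 (adjusted p = 0.216), Chchd1 -0.03 and Gadd45gip1, of the large subunit, -0.03. Mrpl58, which frees stalled peptides from the ribosome, gave 0.19 (adjusted p = 0.27).

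Factors that assemble the mitochondrial ribosome had 8 of 28 members lower (28.6%) and 2 higher (7.14%), with a median of -0.05. Over all genes 15.6% were lower and 11.9% higher, and among genes above the median signal 28.2% and 20.4%. Rbfa, which acts in maturation of the small subunit, fell from 7.43, 7.40 and 7.32 to 6.43, 6.71 and 6.43, a difference of -0.86 (SE 0.09, adjusted p = 0.000327). Nsun4, a methyltransferase of small subunit RNA, gave -0.70 (adjusted p = 0.00522) and C1qbp, a matrix protein needed for mitochondrial translation, -0.63 (adjusted p = 0.000615). The pseudouridine synthases Trub2 and Rpusd3 rose by 0.55 (adjusted p = 0.00257) and 0.42 (adjusted p = 0.0454), and leaving out an array kept the call of Rpusd3 in 2 of 6 fits, with adjusted p from 0.0335 to 0.166.

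Translation factors had 3 of 15 lower (20%) and 0 higher (median -0.05). These were Lrpprc, which stabilises mitochondrial mRNAs (-0.71, adjusted p = 0.0106), Guf1, a back-translocation factor (-0.48, adjusted p = 0.00987), and the elongation factor Gfm1 (-0.37, adjusted p = 0.0423). Leaving out an array kept the call of Lrpprc in 4 of 6 fits (adjusted p from 0.0143 to 0.061) and of Gfm1 in 1 (0.0334 to 0.153). Mitochondrial tRNA synthetases had 3 of 16 lower (18.8%) and 0 higher (median -0.12). They were Fars2 (-0.63, adjusted p = 0.00286), Rars2 (-0.51, adjusted p = 0.00559) and Sars2 (-0.44, adjusted p = 0.0377, kept in 1 of the 6, 0.0376 to 0.133). Of the genes for mitochondrial DNA and its transcription, 2 of 13 were lower (15.4%) and 1 higher (7.69%), with a median of -0.04. Lower calls made up 15.6% of all genes and 28.2% of genes above the median signal. The transcription factors Tfb2m and Tfam gave -0.89 (adjusted p = 0.0013) and -0.68 (adjusted p = 0.0037), Tfam being under the level of olfactory receptor genes in M(CSF2), and the protease Lonp1 gave 0.29 (adjusted p = 0.0482, kept in 1 of the 6, 0.0342 to 0.124). After quantile normalization the median of the translation factors was 0.02 with 2 lower, and Lonp1 lost its call after centring on array medians.

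Regulators known to act on nuclear genes of mitochondria had 4 of 9 lower (44.4%) and 0 higher. Over all genes 15.6% were lower, and 28.2% among genes above the median signal. Myc, which drives growth and ribosome genes, fell from 7.46, 7.51 and 7.25 to 6.49, 6.21 and 6.11, a difference of -1.13 (adjusted p = 0.000254). Pprc1, a coactivator related to PGC-1, gave -0.82 (adjusted p = 0.000516). Gabpa, 1 of the ETS factors, gave -0.35 (adjusted p = 0.0237) and Yy1 -0.30 (adjusted p = 0.0452). Leaving out an array kept each call in 1 of 6 fits, with adjusted p from 0.0132 to 0.0775 and from 0.0163 to 0.145. After quantile normalization 3 of the 9 were lower, Yy1 no longer being called. Nrf1 gave 0.26 (adjusted p = 0.233), Gabpb1 -0.23, Esrra -0.24, Ppargc1b 0.19 and Ppargc1a -0.05, the last under the level of olfactory receptor genes.

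Among genes above the median signal 28.2% were lower, and over all genes 15.6%. Beside these, cytosolic ribosomal protein genes were called lower in 42 of 59 cases (71.2%) and higher in 1, with a median of -0.36. After quantile normalization 37 of them were lower and 2 higher, with a median of -0.35. The list was taken by symbol and holds a few tissue-specific paralogs. Replication licensing genes, which follow cell division, were lower in 12 of 12 cases with a median of -2.03. Their summed signal was 10.56 to 10.86 in M(CSF1) and 8.53 to 8.67 in M(CSF2). Whether the members' differences follow cell division was not tested, and in bulk RNA fewer cells of a type and less RNA per cell cannot be told apart.

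**Figure D4:**
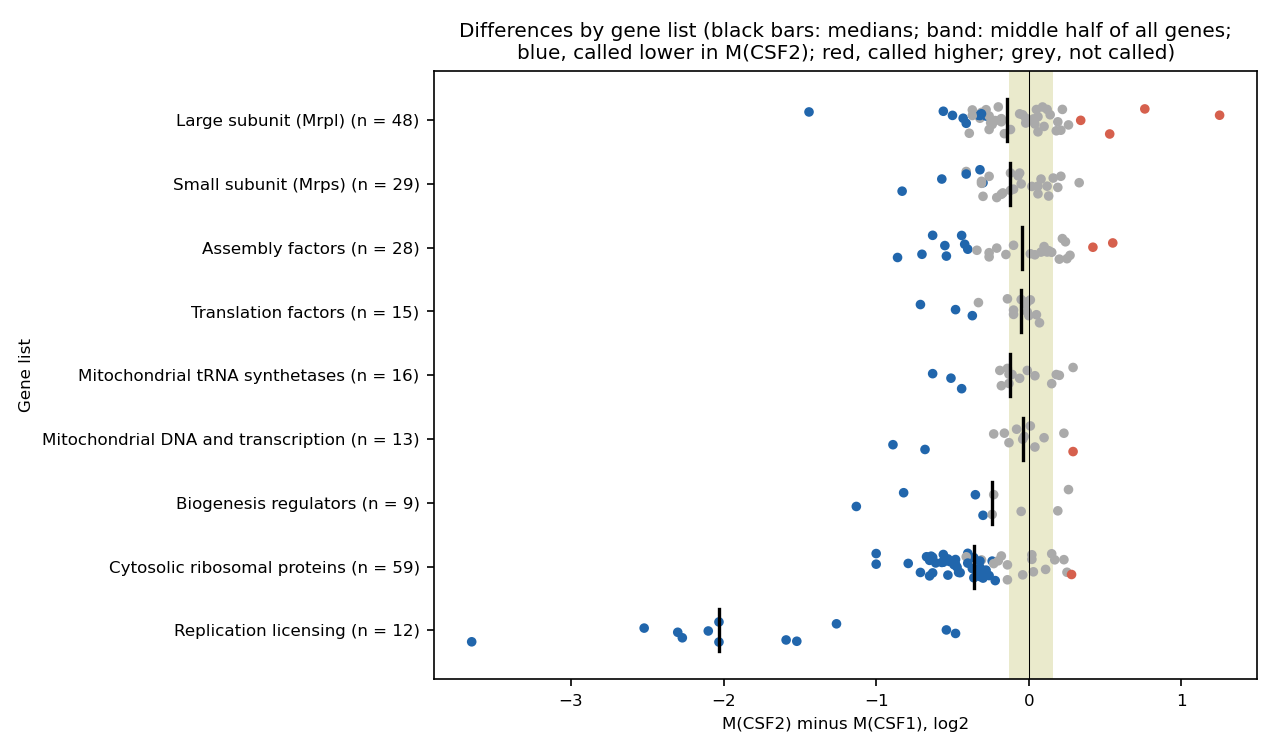
Difference in log2 signal, M(CSF2) mean minus M(CSF1) mean (x axis), of each gene in the 2 subunits and in 7 other lists (y axis), blue for genes called lower, red for higher and grey for not called, with black bars at the medians and a band for the middle 50% of all genes, -0.13 to 0.16. The medians of the subunits, -0.14 and -0.12, lie near the edge of the band, those of cytosolic ribosomal proteins (-0.36) and replication licensing genes (-2.03) outside it. For genes above the median signal the middle 50% ran from -0.42 to 0.24. That range takes in the medians of both subunits and of the cytosolic ribosomal proteins.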

How the data were processed

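Each array has a column of deposited log2 values, 28941 probe sets long; base 2 was inferred from the range of 1.48 to 13.27. The submitters' processing notes name MAS5 with no role, and background correction, normalization and summary are not given in the sources used here. Array medians were 3.91 to 4.00, and there are no detection calls.

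The platform annotation gave 21789 probe sets 1 gene, 1621 several and 5531 none. The brightest probe set by mean over the 6 arrays stood for a gene. All 77 members were found by Entrez identifier, with the same symbol, in RefSeq's gene table. The fit over 19938 genes used lmFit and eBayes of limma 3.58.1 under R 4.3.3, with 2-sided tests. This step was first tested on simulated data with 200 genes changed. There it called 0% of changes of 0.3 on the log2 scale, 22% of 0.5, 86% of 1 and 98% of 2. Far more genes were called in the real data, so those shares do not carry over to it. The number of arrays limits the precision.

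Members and lists were chosen with earlier results of these data known. Genes named were all called members, the 2 highest and lowest signals of each subunit, members with several probe sets and up to 3 called genes in each direction per other list; the regulators and the ribosomal proteins with other names are all given. A few others (Mrpl10, Mrpl11, Mrpl12, Mrpl24, Mrpl30, Mrpl32, Mrps22 and Mrps23) were picked with their values known, as were Cd14 and Fcgr1, and the list of cytosolic ribosomal proteins was added later.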

Additional observations from a re-analysis of the deposited data

How the results depend on the processing

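The fit was repeated with each array left out, after quantile normalization, with arrays centred on their medians, with dim genes left out at 2 levels, with probe sets averaged, with a trended or robust variance, by ordinary least squares and with replicate numbers as a block; calls were also counted by structural subunit and at 2-fold or more. Of the 18 called members, 9 were called in all 6 fits with an array left out and 7 in all 15 fits (Mrpl3, Mrpl18, Mrpl27, Mrpl45, Mrpl57, Mrps15 and Mrps28), and none changed direction. Large subunit lower calls, 9 as reported, were 5 after quantile normalization, 4 with ordinary least squares, 1 at 2-fold and 4 to 10 with an array left out. Large subunit higher calls, 4 as reported, were 8, 2 and 1 in the first 3 of these settings and 3 to 5 with an array left out. Small subunit lower calls, 5 as reported, were 9 among genes above the median signal, 8 above the olfactory receptor level, 2 with ordinary least squares, 0 at 2-fold and 3 to 7 with an array left out; fewer genes were tested under the filters. Small subunit higher calls were 0 except for 2 after quantile normalization. The small subunit median went from -0.12 to -0.02 after quantile normalization; the cause was not tested. All genes called were 5488, 3769 to 5849 in the other fits and 1594 at 2-fold. The reported fit did not pair same-numbered samples, and the labels do not say whether these shared a mouse. Correlations of their deviations were -0.01, -0.03 and -0.24, and other pairs gave -0.17 to 0.21. With 3 arrays in each group these values cannot show whether the samples were paired. With the replicate block 12 members were lower and 3 higher (large subunit 6 and 3, small subunit 6 and 0). Of these calls 14 were shared with the reported ones, and 5072 genes were called in all.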
